A study of Mus musculus with 2 samples.

Results

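The constitutive proteasome is represented here by 39 genes, taken by name: the 7 alpha and 7 beta subunits of the core particle, the 6 ATPases and 11 other subunits of the regulatory particle, 2 activators, and 6 genes for assembly factors. Every probe set whose platform annotation gave exactly 1 of these symbols was used, and all 39 genes were found, with 86 probe sets, among 18193 genes measured in all. The study compared mouse regulatory T cells (Tregs) that dendritic cells (DCs) had induced in vivo, after immunization, and that were sorted on CD25 and Foxp3. The Hopx-deficient group (genotype Hopx-/-) and the Hopx-sufficient group had 1 array each. Hopx is a small homeodomain protein that acts as a transcription cofactor and does not bind DNA itself. The construct behind the Hopx-/- allele, the exact genotype of the sufficient mice, the strain, the age, the antigen and the number of mice pooled are not given in the sources used here. No array was dropped.

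The proteasome degrades proteins that carry ubiquitin chains. Its barrel-shaped core has alpha rings outside, which gate the entry, and beta rings inside, which hold the proteolytic sites; a regulatory particle on the end of the barrel binds the ubiquitin chain, removes it, and unfolds the substrate with a ring of ATPases. In T cells, proteasome activity removes cell cycle regulators and inhibitors of NF-kB and yields peptides for MHC class I. Activated and dividing T cells are known to make more proteasomes than resting ones.

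Only differences could be read from the arrays. Each probe set in the deposited table is expressed relative to its own average across both arrays, so that the columns mirror each other and hold no signal level. A difference below is log2, Hopx-deficient minus Hopx-sufficient, set against the median probe set and averaged over the probe sets of a gene, and base 2 is an assumption. Because each genotype was measured on 1 array, nothing here has a replicate error, there is no test and no p-value, and every value describes these 2 arrays. Spread is given between probe sets of a gene. Lists are given as counts and medians, to be set against all genes, of which 49.9% were lower and 50.1% higher, with 10.1% at least 1.2-fold lower, 7.1% at least 1.2-fold higher and a median of 0.00. The Hopx transcript differed by -5.15, lower on the Hopx-deficient array; whether it was above background there cannot be read from centred values, so no fold is given. Whether the sorted cells carried T cell markers at a high level could not be read from centred values; of 5 T cell genes, Cd3d (0.22), Cd3e (0.22), Cd3g (0.28) and Cd247 (0.30) were higher on the Hopx-deficient array and Cd4 stood at -0.01.

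Proteasome genes were lower on the Hopx-deficient array nearly throughout, by a small amount each. Of the 39 genes, 36 were lower (92.3%), against 49.9% of all genes, and 3 were higher, against 50.1% of all genes. The median difference of the proteasome genes was -0.23, a 1.17-fold lower value, against 0.00 over all genes. By a rule of size of 1.2-fold, 14 of the 39 were lower (35.9%, against 10.1% of all genes) and 0 were higher (against 7.1% of all genes). None was 1.5-fold lower by the mean of its probe sets, a size reached by 1.31% of all genes; 1 gene, Psme3, was so by the median of its probe sets (-0.63, against 1.38% of all genes). The differences ran from -0.58 for Psmb7 to 0.05 for Psmd2 with an SD between genes of 0.15, against an SD of 0.21 over all genes. Of the 39, 28 lay below the 25th percentile of all genes (-0.12), but only 2, Psmb7 and Psme3, lay below the 2.5 percentile of -0.48. The pattern was thus one of many small differences of the same sign rather than of a few large ones. In a bulk sample, fewer cells that express these genes and less RNA per cell cannot be told apart.

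**Figure D1:**
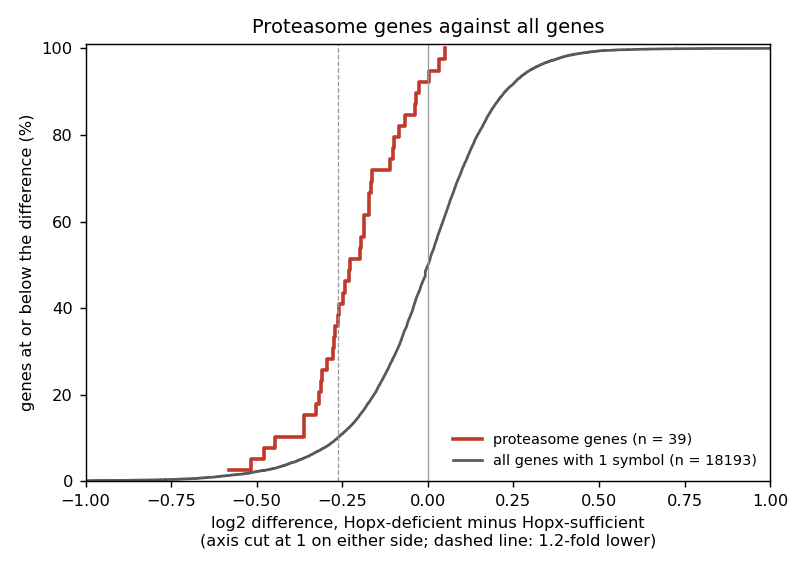
Share of genes (vertical axis, percent) at or below a given log2 difference, Hopx-deficient minus Hopx-sufficient (horizontal axis), for the 39 proteasome genes and for all 18193 genes. The proteasome curve lies to the left: 92.3% of it is below 0, against 49.9% of all genes, and its lowest gene lies at -0.58.

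Some other values moved with this difference, and their part in it was not tested. The 18 probe sets of the hybridization spike-ins, bacterial and phage RNAs added to each hybridization, ranged from -0.22 to 0.01 with a median of -0.12. Of the proteasome genes, 20 had values under that range, 17 within it and 2 above it. The marker lists below were chosen with earlier results of these data known, so their counts are not an independent survey of such markers. Macrophage markers were higher on the Hopx-deficient array in 13 of 13 cases (against 50.1% of all genes), with a median of 0.41. Each was at least 1.2-fold higher, against 7.1% of all genes. Hmox1 (0.93), Mrc1 (0.89), Slc40a1 (0.80) and Fcna (0.76) differed most, and Cd5l, Cd163, C1qb, C1qc, Spic, C1qa, Adgre1, Vcam1 and Cd68 ran from 0.54 to 0.31. Against 49.9% of all genes lower, B cell markers were lower in 6 of 6 (median -0.25), led by Cd79a (-0.41), Ebf1 (-0.40) and Cd22 (-0.29), and MHC class II genes in 5 of 5 (median -0.24), led by H2-Ab1 (-0.38) and H2-Aa (-0.34). CD8 T and NK cell markers went both ways (3 of 5 lower, against 49.9% of all genes; median -0.13), with Nkg7 at 0.43 and Klrd1 at -0.42. Since centred values hold no levels, neither the summed level of a marker list nor a marker at 0 can be given.

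The beta subunits of the core had a median of -0.27, and all 7 were lower (against 49.9% of all genes), 5 of them at least 1.2-fold (against 10.1%). This was the lowest median of the 4 structural groups by the means of probe sets, but the order changed with the choice of probe sets. With the probe set furthest from 0 the medians were -0.31 for beta, -0.34 for alpha, -0.30 for the ATPases and -0.32 for the lid and base. Without the dimmer probe sets, as far as these could be told, they were -0.27 for beta and for the ATPases alike. The 3 proteolytic subunits were among these 5. Psmb7, which carries the trypsin-like activity, had a deposited value of -0.29 on the Hopx-deficient array and of 0.29 on the Hopx-sufficient array. Its difference of -0.58 was the lowest mean of any proteasome gene and lay just short of the 1.5-fold rule; by the median of probe sets Psme3 was lower, at -0.63. For Psmb6, the caspase-like subunit, the deposited values were -0.15 on the Hopx-deficient and 0.15 on the Hopx-sufficient array, a difference of -0.31. Psmb5, the chymotrypsin-like subunit, had -0.13 on the Hopx-deficient and 0.13 on the Hopx-sufficient array, a difference of -0.27. Each of the 3 rests on a single probe set, so no error can be given for the order among them. The 4 beta subunits without an active site had a median of -0.19: Psmb2 at -0.36 (1 probe set), Psmb3 at -0.27 (probe sets at -0.29 and -0.25), Psmb4 at -0.11 and Psmb1 at -0.10. The probe sets of Psmb1 differed in sign, at -0.34, -0.06 and 0.10.

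Alpha subunits were lower in 7 of 7 cases too (against 49.9% of all genes), with a median of -0.23 and 1 gene past 1.2-fold (against 10.1%). That gene, Psma7, had mean deposited values of -0.18 on the Hopx-deficient and 0.18 on the Hopx-sufficient array, and its 2 probe sets gave -0.38 and -0.34. Psma4 (-0.24), Psma6 (-0.23) and Psma2 (-0.23) lay close together, and the 4 probe sets of Psma6 were all lower, from -0.34 to -0.14. In the other 3 alpha genes the probe sets differed in sign. Psma5 (mean -0.19) had probe sets at -0.46, -0.31 and 0.20. Psma1 (mean -0.16) had probe sets at -0.44, -0.34, -0.20 and 0.33. Psma3 (mean -0.08) had probe sets at -0.19 and 0.02. In each of these genes 1 probe set stood above 0 and the rest below.

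**Figure D2:**
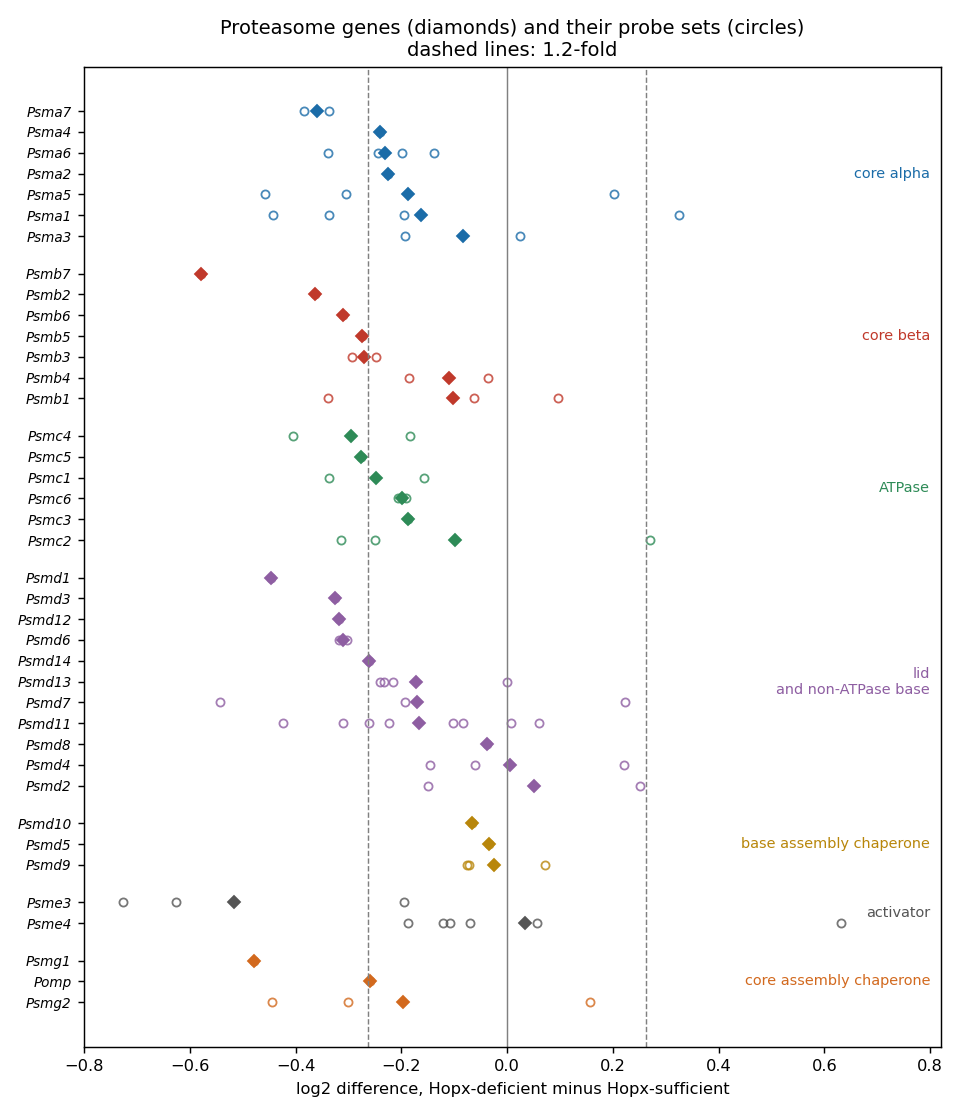
Log2 difference, Hopx-deficient minus Hopx-sufficient (horizontal axis), of each proteasome gene (diamonds, means) and each of its probe sets (open circles), grouped by role; dashed lines mark 1.2-fold either way. Of the 39 means 36 lie left of 0 and none right of the 1.2-fold line, while single probe sets of 12 genes fall on either side of 0.

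The ATPases, which form the unfolding ring at the base of the regulatory particle, were lower in 6 of 6 cases (against 49.9% of all genes), with a median of -0.22. They varied least among the 4 groups, with an SD of 0.07, against 0.08 for the alpha subunits. Psmc4 (-0.29) and Psmc5 (-0.28) passed 1.2-fold (2 of 6, against 10.1% of all genes), followed by Psmc1 (-0.25), Psmc6 (-0.20), Psmc3 (-0.19) and Psmc2 (-0.10). The 3 probe sets of Psmc6 agreed to within 0.02, from -0.21 to -0.19. Those of Psmc2 did not, standing at -0.31, -0.25 and 0.27. Psmc4 had mean deposited values of -0.14 on the Hopx-deficient and 0.14 on the Hopx-sufficient array.

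The lid and the base subunits without ATPase activity, 11 genes, were lower in 9 cases (against 49.9% of all genes), with a median of -0.17 and 4 genes past 1.2-fold (against 10.1%). Psmd1, a large scaffold of the base, was lowest at -0.45 (1 probe set), with deposited values of -0.22 on the Hopx-deficient and 0.22 on the Hopx-sufficient array. The lid, which holds the deubiquitinase, was lower in 8 of 8 genes (against 49.9% of all genes) with a median of -0.22. It was led by Psmd3 (-0.33), Psmd12 (-0.32) and Psmd6 (-0.31, probe sets at -0.32 and -0.30). Psmd14, the deubiquitinase itself, stood at -0.26, just short of 1.2-fold, with Psmb3 (-0.27) just past it. Psmd13 (-0.17), Psmd7 (-0.17), Psmd11 (-0.17) and Psmd8 (-0.04) were closer to 0. Probe sets of Psmd7 disagreed most among these, at -0.54, -0.19 and 0.22, and of the 8 probe sets of Psmd11, which range from -0.42 to 0.06, 6 were lower. The 2 genes of this group above 0 were Psmd2, the other large scaffold of the base (0.05, probe sets at -0.15 and 0.25), and Psmd4, a ubiquitin receptor (0.00, probe sets at -0.15, -0.06 and 0.22). In both, the probe set listed under a RefSeq mRNA was lower, at -0.15 for Psmd2 and at -0.06 for Psmd4.

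**Figure D3:**
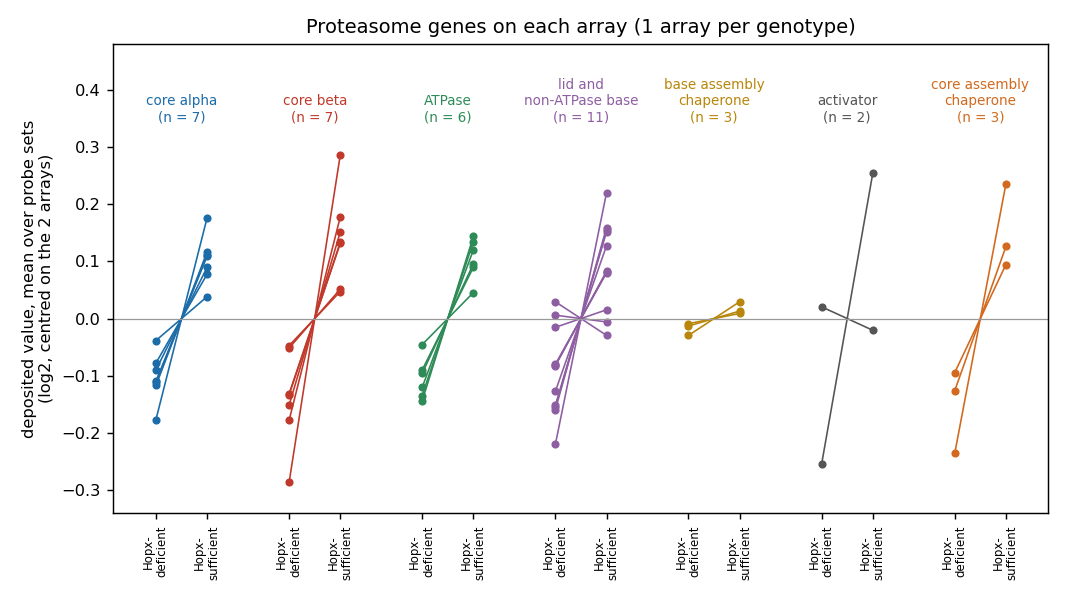
Deposited values (vertical axis, log2, centred on the 2 arrays and averaged over the probe sets of a gene) of each proteasome gene on the Hopx-deficient array and on the Hopx-sufficient array, joined by a line and split by role. The lines mirror each other about 0 because of the centring. The line of Psmb7 is the steepest, with -0.29 on the Hopx-deficient and 0.29 on the Hopx-sufficient array. Those of the 3 base assembly chaperones are nearly flat, as are those of Psmd4, Psmd8, Psme4 and Psmd2 in other groups.

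Assembly factors are given by the particle they serve. The 3 chaperones of the core were lower (against 49.9% of all genes), with a median of -0.26. Psmg1, which with Psmg2 builds the alpha ring, stood at -0.48 (1 probe set), and its deposited values were -0.24 on the Hopx-deficient and 0.24 on the Hopx-sufficient array. Pomp, which guides the maturation of the beta rings and is then degraded by the finished core, stood at -0.26. Psmg2 stood at -0.20, with probe sets at -0.45, -0.30 and 0.16. The 3 chaperones of the base, Psmd10 (-0.07), Psmd5 (-0.03) and Psmd9 (-0.03, probe sets at -0.08, -0.07 and 0.07), were lower too (against 49.9% of all genes), with a median of -0.03. None of them reached 1.2-fold, a size by which 10.1% of all genes were lower. They share the Psmd name with the subunits but leave the particle before it is finished. The difference between these groups of 3 was not tested.

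The 2 activators, which cap the core in place of the regulatory particle and are mainly nuclear, stood far apart. Psme3, encoding PA28gamma, was 1.43-fold lower (-0.52), with mean deposited values of -0.25 on the Hopx-deficient and 0.25 on the Hopx-sufficient array. Its 3 probe sets were all lower but unequal, at -0.73, -0.63 and -0.20. Psme4, encoding PA200, stood at 0.03, and 4 of its 6 probe sets were lower, between -0.19 and -0.07. The other two stood at 0.06 and 0.63, so that the probe set at 0.63 alone set the sign of the mean.

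Probe sets of the same gene were the available check on single values. Of the 86 probe sets, 72 were lower (83.7%, against 50% of the 34945 probe sets with 1 symbol). In 27 of the 39 genes every probe set was lower: in all 17 genes with 1 probe set and in 10 of the 22 with several. In the remaining 12 the signs differed, and the mean was below 0 in 9 of these. In no gene was every probe set higher. How often probe sets agree or differ in sign over all genes was not computed, so these counts of genes have no share to be set against. The SD between probe sets within a gene was 0.23 for the proteasome genes with several probe sets, against 0.18 over all genes with several. The SD of 0.15 between the means of the 39 genes is not a like measure. It includes the 17 genes with 1 probe set, and the other means are averages over probe sets. The genes with 1 probe set had a median of -0.27 and those with several a median of -0.17.

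The higher probe sets were unevenly placed. Of the 22 probe sets listed under a RefSeq mRNA, 21 were lower and 1 higher (Psmd9, 0.07), with a median of -0.26, while RefSeq mRNA probe sets over all genes were lower in 51.5% of cases. Of the other 64, 51 were lower and 13 higher, with a median of -0.20. The size of the steps between deposited values shows for some probe sets that the uncentred log value was below 8 on at least 1 array, if the values were held in single precision. That held for 10 of the 86 proteasome probe sets (11.6%), against 33.4% of all probe sets with 1 symbol. Of these 10, 5 were lower and 5 higher, among them the probe sets of Psme4 at 0.63, Psma1 at 0.33 and Psmc2 at 0.27. Of the other 76, 67 were lower and 9 higher. These splits were looked at after the values were seen. Of all probe sets with 1 symbol, 50% were lower. That share was not computed apart for probe sets not listed under a RefSeq mRNA, nor for either class of step size.

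Promoters were searched for letters that might set the lower genes apart. RefSeq promoter windows of build GRCm38.p6, running from 250 bases before to 50 after the annotated start, were found for 32 of the 39 genes, and 2 of these had more than 1 window. The first motif was TGACNNNGC on both strands, the core of the antioxidant response element, through which the factor NRF1 (gene Nfe2l1) is known to raise proteasome genes when proteasome activity is short. It was found in 6 of the 32 genes (18.8%), against 14% of all 27025 genes with a window and 12.4% of all 32851 windows. The 6 were Psmb5, Psmb6, Psmc6, Psmd12, Psmd9 and Psme4. Their differences ran from -0.32 to 0.03 with a median of -0.24, and the 26 without a match ran from -0.52 to 0.05 with a median of -0.23. The 4 windows below show the match, in capitals, in the proteolytic subunits Psmb5 and Psmb6 and in the lowest (Psmd12) and the highest (Psme4) gene of the 6. Psmb5 lies on chromosome 14 (chr14:54617946-54618245, minus strand) and differed by -0.27. The other three lie on the plus strand of chromosome 11: Psmb6 at chr11:70525107-70525406 (difference -0.31), Psmd12 at chr11:107479278-107479577 (difference -0.32) and Psme4 at chr11:30771525-30771824 (difference 0.03). Each sequence runs 5′ to 3′ on the strand of its gene, and no match overlaps another motif searched.
Psmb5: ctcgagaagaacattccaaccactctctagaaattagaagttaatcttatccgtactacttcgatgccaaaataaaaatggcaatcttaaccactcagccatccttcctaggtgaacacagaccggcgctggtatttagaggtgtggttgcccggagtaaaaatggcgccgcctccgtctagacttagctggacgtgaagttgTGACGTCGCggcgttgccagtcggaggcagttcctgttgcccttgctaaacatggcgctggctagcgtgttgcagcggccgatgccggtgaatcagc
Psmb6: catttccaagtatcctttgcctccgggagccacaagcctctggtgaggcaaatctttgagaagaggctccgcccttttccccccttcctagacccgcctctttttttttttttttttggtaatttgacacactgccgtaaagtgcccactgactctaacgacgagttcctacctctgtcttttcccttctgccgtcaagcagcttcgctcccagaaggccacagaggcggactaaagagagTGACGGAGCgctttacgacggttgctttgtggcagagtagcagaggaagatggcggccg
Psmd12: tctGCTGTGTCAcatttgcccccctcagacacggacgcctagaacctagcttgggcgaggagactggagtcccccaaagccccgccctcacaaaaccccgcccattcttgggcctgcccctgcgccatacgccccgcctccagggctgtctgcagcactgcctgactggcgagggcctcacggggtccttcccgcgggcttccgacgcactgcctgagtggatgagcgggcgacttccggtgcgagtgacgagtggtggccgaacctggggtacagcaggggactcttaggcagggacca
Psme4: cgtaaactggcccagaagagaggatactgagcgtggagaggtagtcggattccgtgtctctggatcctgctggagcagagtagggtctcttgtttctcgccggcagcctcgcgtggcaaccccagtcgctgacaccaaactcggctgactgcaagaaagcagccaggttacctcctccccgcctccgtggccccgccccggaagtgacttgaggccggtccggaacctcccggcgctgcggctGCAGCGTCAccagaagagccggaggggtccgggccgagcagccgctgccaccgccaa

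In Psmb5, Psmb6 and Psme4 the match begins shortly before the annotated start, at positions -47, -9 and -7. In Psmd12 it begins at the far end of the window, at -247. Of the 6 genes with a match 5 were lower, and of the 26 without a match 24 were lower (against 49.9% of all genes). Whether the motif bears on the differences was not tested. The other motifs differed in how often they were found. CCAAT was found in 12 of the 32 genes (37.5%, against 41.1% of all genes), whose median was -0.23 against -0.22 without it. GGGCGG, the Sp1 box, was found in 20 (62.5%, against 38.2% of all genes), whose median was -0.23 against -0.21 without it. The E-box CACGTG was found in 3 (Psma4, Psmd9 and Psme3; 9.38%, against 8.09% of all genes), whose median was -0.24 against -0.23 without it. A match is a run of letters and not a bound site, and these counts carry no test.

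Of the genes around the constitutive proteasome, 40 were listed and 31 measured: 24 of the 31 were lower (against 49.9% of all genes) and 7 higher, with a median of -0.07. Of the 31, 3 were at least 1.2-fold lower, a share near the 10.1% of all genes. The immunoproteasome list holds subunits that replace the proteolytic ones under interferon, while its gene Psme1 encodes an activator subunit. This list was lower in 4 of 4 measured genes (against 49.9% of all genes) with a median of -0.17. Psmb10 stood at -0.23, Psmb8 at -0.21, Psme1 at -0.12 and Psmb9 at -0.07, and none reached 1.2-fold (10.1% of all genes were lower by that size). Without a test of the difference, each constitutive proteolytic subunit was further from 0 by its mean than the one that replaces it: Psmb7 at -0.58 beside Psmb10, Psmb5 at -0.27 beside Psmb8, and Psmb6 at -0.31 beside Psmb9. The 2 probe sets of Psmb8 stood at -0.27 and -0.16, so that 1 of them lay beside Psmb5. Every other gene of these pairs had 1 probe set. Among 11 other proteasome parts and partners 10 were lower (against 49.9% of all genes; median -0.18). Uchl5, a deubiquitinase that docks on the regulatory particle, was the lowest at -0.65 (1.57-fold), with probe sets at -0.84 and -0.46. Psmb11, the beta subunit of thymic epithelium, stood at -0.32 by 1 probe set. Whether that probe set was above background cannot be read from centred values. Txnl1, a thioredoxin-like protein bound to the lid, stood at -0.29 with all 6 probe sets between -0.47 and -0.14.

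The genes upstream were nearer to 0. In the NRF1 list 2 of 4 were lower (against 49.9% of all genes; median -0.01): Nfe2l1 itself stood at -0.11 and Ngly1, an enzyme that NRF1 needs to become active, at 0.26. Among p97 and the shuttle proteins, which deliver ubiquitinated substrates, 8 of 11 were lower (against 49.9% of all genes) with a median of -0.05. None of the 11 reached 1.2-fold, a size by which 10.1% of all genes were lower. The median of this list was -0.12 without the _s_at and _x_at probe sets, which may bind more than their target, and -0.19 with the probe set furthest from 0. Nploc4, a cofactor of p97, was lowest at -0.25 and the shuttle gene Rad23b next at -0.23, while Vcp, encoding p97, stood at -0.04. Of the ubiquitin and E1 list only Uba6, an activating enzyme, was measured (0.03).

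Large complexes of related build gave values for comparison, with no test of the difference. The COP9 signalosome, which shares its architecture with the lid, was lower in 8 of 9 genes (against 49.9% of all genes) with a median of -0.22, led by Gps1 (-0.43) and Cops4 (-0.32). The translation factor eIF3, which shares it too, was lower in 6 of 11, a share near the 49.9% of all genes, with a median of -0.05; Eif3b stood at -0.52 and Eif3a at -0.27. The CCT chaperonin, which folds actin and tubulin, was lower in 8 of 8 (against 49.9% of all genes) with a median of -0.20, led by Cct6a (-0.44) and Cct7 (-0.38), with Cct3 and Tcp1 at -0.27 each also past 1.2-fold. The medians of the COP9 and CCT lists thus lay near that of the proteasome genes, and that of eIF3 nearer to 0.

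**Figure D4:**
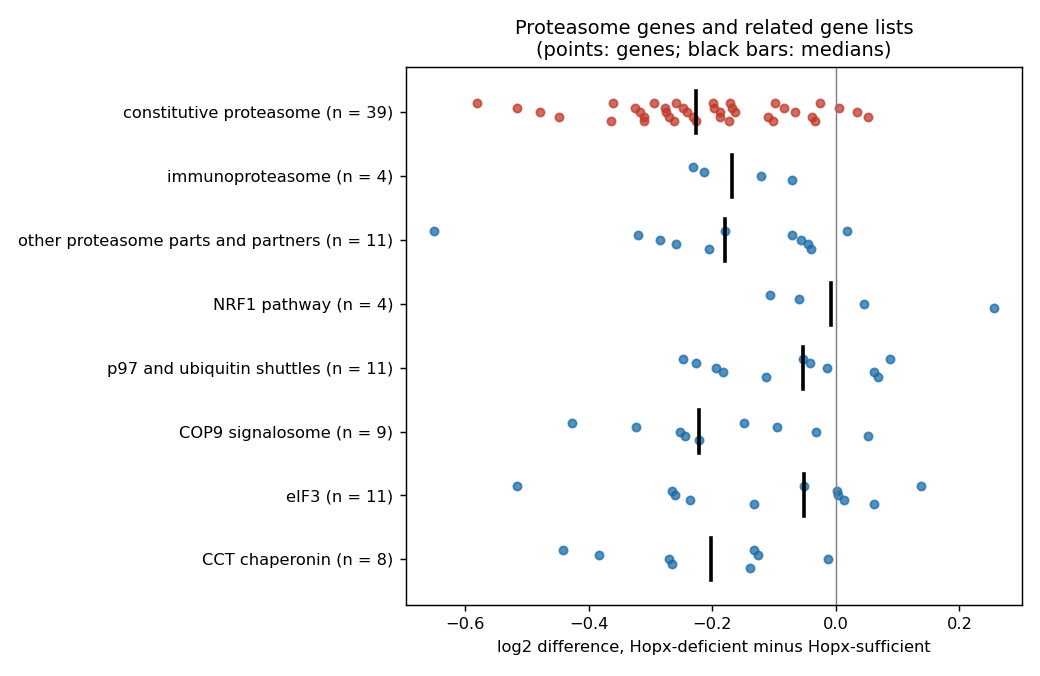
Log2 difference, Hopx-deficient minus Hopx-sufficient (horizontal axis), of each measured gene (points) of the constitutive proteasome and of 7 related lists, with black bars for the medians. The medians of the proteasome (-0.23), the COP9 signalosome (-0.22) and the CCT chaperonin (-0.20) lie close together, and those of the NRF1, p97 and eIF3 lists near 0.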

How the data were processed

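Total RNA of sorted Tregs, 1 sample per genotype, was hybridised to 3' expression arrays with 45101 probe sets, and groups came from the sample titles. RNA was extracted with Trizol, per the labels' protocols. The summarisation, normalization and log base are not given in the sources used here. The authors deposited log2-type values centred on both arrays, as tested on the table: row sums are 0 to within 1e-06. Base 2 was assumed; with natural logs every difference would be 1.44 times larger. Gene names came from the platform annotation of 2016, updated by gene ID (GRCm38.p6 gene table, 34741 of 34945 probe sets with 1 symbol matched). Left out were 932 probe sets that carry more than 1 symbol, 9160 that carry none and 64 controls. The difference was centred on its median over the 34945 (0.0075) and averaged over the probe sets of a gene. Folds of 1.2 and 1.5 are rules of size. Of 106 related genes listed, 93 were matched. The members and lists were chosen with earlier results of these data known. Named are all 39 proteasome genes, Hopx, the measured immunoproteasome genes and, of each related list, the 2 most different and those past 1.2-fold; any others were named after their values were seen. The calculation was tested on simulated differences with known shifts. Python 3.11.15, numpy 2.4.6, pandas 2.3.3 and matplotlib 3.10.9 were used.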

Additional observations from a re-analysis of the deposited data

How the results depend on the processing

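No paired analysis was possible because a single sample represents each genotype, and for the same reason none could be omitted. The values moved least without centring, with the median over probe sets, without the _s_at and _x_at probe sets, and without the finest value steps. There the median of all 39 ran from -0.25 to -0.22. The count of lower genes ran from 36 to 38, against 47.4% to 50.7% of all genes. The count at least 1.2-fold lower ran from 14 to 17, against 9.56% to 10.5% of all genes. The lid and base median was -0.22 with the median over probe sets, where 1 gene, Psme3, passed 1.5-fold. With all 14 Psmd genes as 1 group the median was -0.17, as for the 11. Taking from each gene the probe set furthest from 0, the median was -0.31 and 23 genes were at least 1.2-fold lower (against 17.6% of all genes). Psme3 (-0.73) was then past 1.5-fold lower, as were 2.48% of all genes. Psme4 (0.63) was past 1.5-fold higher, a size for which the share of all genes was not computed. The group medians were -0.34 (alpha), -0.31 (beta), -0.30 (ATPases) and -0.32 (lid and base). With natural logs the median was -0.33, 24 genes passed 1.2-fold (against 17.1% of all genes), 4 passed 1.5-fold (against 4.06% of all genes), and the group medians were -0.33 (alpha), -0.40 (beta), -0.32 (ATPases) and -0.25 (lid and base).

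A pair of alternatives was chosen after seeing the data. With RefSeq mRNA probe sets alone, which measured 20 of the genes, 19 were lower (against 48.7% of all genes), with a median of -0.26 and -0.23 for the lid and base. Without probe sets whose steps place a value below 8, 36 of 39 were lower (against 47.6% of all genes). Of these, 16 were at least 1.2-fold lower, against 11.1% of all genes, and the ATPase median was -0.27, against -0.27 for beta. No gene past 1.2-fold changed sign under any of these alternatives. Genes near 0 did: Psmd4 and Psme4 with the median over probe sets, and Psmd9 and Psme4 without values below 8. With RefSeq mRNA probe sets alone, Psmd2, Psmd4 and Psmd9 did. Medians of the related lists that moved by over 1.5 times were, with the probe set furthest from 0, those of the other proteasome parts (-0.35), CCT (-0.33), MHC class II (-0.43), CD8 T and NK cells (-0.24, as with the median over probe sets) and p97 (-0.19), and the value of Uba6 (0.27). Without the _s_at and _x_at probe sets they were those of p97 (-0.12) and eIF3 (-0.08). Without values below 8 they were those of the CD8 T and NK cell (-0.02), B cell (-0.08) and p97 (-0.03) lists. RefSeq mRNA probe sets alone left few genes of these lists: 1 of the other proteasome parts (-0.04), 2 of p97 (-0.33), and 3 each of the B cell (-0.06) and CD8 T and NK cell (-0.23) markers. The NRF1 median, near 0, was 0.04 with the probe set furthest from 0, 0.01 without values below 8 and 0.08 with RefSeq mRNA probe sets alone. What limits all of this is the number of arrays: 1 per genotype leaves differences between mice, sorts and hybridizations unmeasured, and without signal levels dim probe sets could be left out only in part.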
